A study of Homo sapiens with 6 samples.

Results

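The genes described here encode 37 enzymes of nucleotide and folate metabolism, chosen by a list of symbols from the 26484 genes counted in each library. They were sorted by chemistry into 9 enzymes of purine synthesis, 5 of pyrimidine synthesis, 6 that supply deoxynucleotides, 12 of salvage and interconversion, and 5 of the folate cycle. Of the 37, 36 passed the filter on low counts and were tested. The exception was CDA, cytidine deaminase, with 13, 9 and 7 counts at 8000 Pa and 11, 3 and 7 counts at 500 Pa.

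The RNA came from MCF10CA1a, a human breast cancer cell line whose lineage goes back to the untransformed breast epithelial cells MCF10A. Cells sat for 5 days on hydrogel dishes with a stiffness of 8000 Pa or 500 Pa, both coated with growth factor-reduced Matrigel at 0.14 mg/ml and both given fresh medium on day 4. Each stiffness had 3 biological replicates, numbered 1 to 3, of RNA that the labels call cytosolic. A single cell line was used, and the labels do not say whether same-numbered cultures shared a day.

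Cells make purine nucleotides stepwise on a ribose phosphate and pyrimidine nucleotides by building the base first, and they also recover bases and nucleosides through salvage enzymes. Ribonucleotide reductase and thymidylate synthase turn these products into the building blocks of DNA. The folate cycle, split between cytosol and mitochondria, passes serine-derived carbon to purine rings and to thymidylate. Proliferating tumour cells are known for high use of these routes.

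UPP1, uridine phosphorylase 1, which splits uridine into uracil and ribose phosphate, was the one member that passed in any of the fits run, and those that passed all had the replicate number as a block. It had 91.5, 118 and 174 CPM (counts scaled to library size) in 8000 Pa replicates 1, 2 and 3, against 286, 178 and 251 CPM in 500 Pa replicates 1, 2 and 3. Every 8000 Pa library lay below every 500 Pa library, the closest being 8000 Pa replicate 3 and 500 Pa replicate 2. The means were 128 ± 42.1 CPM at 8000 Pa and 238 ± 54.8 CPM at 500 Pa (SD, n = 3 each).

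In the edgeR fit of stiffness alone, UPP1 had a log2 fold change, 8000 Pa over 500 Pa, of -0.90 (SE 0.30, 95% interval -1.54 to -0.26) and an adjusted p of 1.00, so it did not pass the FDR of 0.05. It passed in the fit with the replicate number as a block (log2 fold change -0.92, SE 0.23, edgeR adjusted p = 0.0228), lower in 3 of 3 pairs, which are the pairs that fit used. With the same block and a correction for GC content, it passed with a log2 fold change of -0.83 (edgeR adjusted p = 0.00665). UPP1 did not pass the blocked fit without replicate 1 (-0.54, edgeR adjusted p = 0.483) or without replicate 3 (-1.07, 0.511).

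Stiffness alone gave 0 calls among the 36 tested members, as among all 11517 tested genes, of which 0% were called and 2.45% had an unadjusted p under 0.05. UPP1 was the 1 member with an unadjusted p under 0.05 there, and DESeq2 and limma-voom without the block also called 0 members. With the block, 1 of 36 members fell and 0 rose, against 0.269% of all tested genes called lower and 0.26% called higher (0.53% in either direction). At an unadjusted p under 0.05 in that fit, 5 of 36 members were lower and 0 were higher, against 6.12% and 4.49% of all tested genes.

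The UPP1 gene lies on chromosome 7 from 48088628 to 48108733 on the plus strand (GRCh38). Its upstream stretch is shown because UPP1 was the called member, and the stretch between PPAT and PAICS because that pair of purine genes is transcribed outward from it. Both are read on the plus strand from RefSeq promoter windows (GRCh38.p14), and stop short of the annotated GENCODE 29 exons. Capitals mark the AP-1 letters TGAGTCA in the first and the GC box letters GGGCGG in the second, motifs added after the sequences were seen.
UPP1 upstream, chr7:48088454-48088627: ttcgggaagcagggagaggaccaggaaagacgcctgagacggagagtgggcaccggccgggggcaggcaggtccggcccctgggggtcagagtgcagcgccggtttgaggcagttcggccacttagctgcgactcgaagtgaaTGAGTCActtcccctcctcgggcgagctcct
PPAT to PAICS, chr4:56435616-56435740: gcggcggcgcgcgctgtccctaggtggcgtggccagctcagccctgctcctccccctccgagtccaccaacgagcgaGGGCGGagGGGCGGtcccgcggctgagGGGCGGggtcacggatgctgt

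The UPP1 stretch holds 1 AP-1 match and the stretch between PPAT and PAICS holds 3 GC boxes. Promoter windows of 300 bases, from 250 before the start to 50 after it, were found for 34 of the 37 members. Matches were sought on both strands, and a gene counted where any of its windows held the letters. The E-box CACGTG was in windows of 9 of the 34 members (26.5%), among them PPAT, PAICS, ATIC and MTHFD1, against 8.77% of 27305 genes. Those 27305 are all genes with a promoter window, tested here or not, so no share among expressed genes is given. PPAT and PAICS lie 125 bases apart, less than the 250 bases that each window reaches before the start. Their windows therefore share sequence, and these members are not independent in the counts of any motif. Whether they share an E-box match was not tested. The E2F letters (TTTCGCGC, TTTGGCGC, TTTCCCGC or TTTGCCGC) were in 5 of 34 members (14.7%), including TYMS, DUT and DCK, against 3.99% of all genes. CCAAT was in 14 members (41.2%), RRM2, RRM1 and TK1 among them, against 39.7% of all genes. The ATF4 letters TGATGNAA were in 2 members (5.88% against 4.46%), AP-1 in 2 (5.88% against 6.05%), and the GC box in 28 (82.4% against 48.3%). None of the fixed motifs, which leave out AP-1 and the GC box, was found in either printed stretch.

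Salvage and interconversion enzymes were lower more often than higher on stiff gels. Of the 11 tested, 10 had a log2 fold change below 0 without the block and NT5E alone was above it, with a median of -0.28. HPRT1 (-0.02, SE 0.31) and UCK2 (-0.06, SE 0.28) lay nearest 0, and with the block HPRT1 was at 0.004. Over all 36 tested members 23 were below 0, with a median of -0.09 (0.04 when scaled by library size alone, where the median of all genes was 0.17). Over all tested genes 48.8% were below 0, with a median of 0.01. The salvage medians in the replicate pairs were -0.68, -0.16 and -0.13 for replicates 1, 2 and 3. Without the replicate 1 pair, in a blocked fit looked at after seeing the data, 7 of the 11 salvage members were below 0, with a median of -0.11, and 18 of all 36 members were. In the replicate 1 pair, and in the edgeR fit of stiffness alone, the fold change also went with GC content, as described further on.

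**Figure D1:**
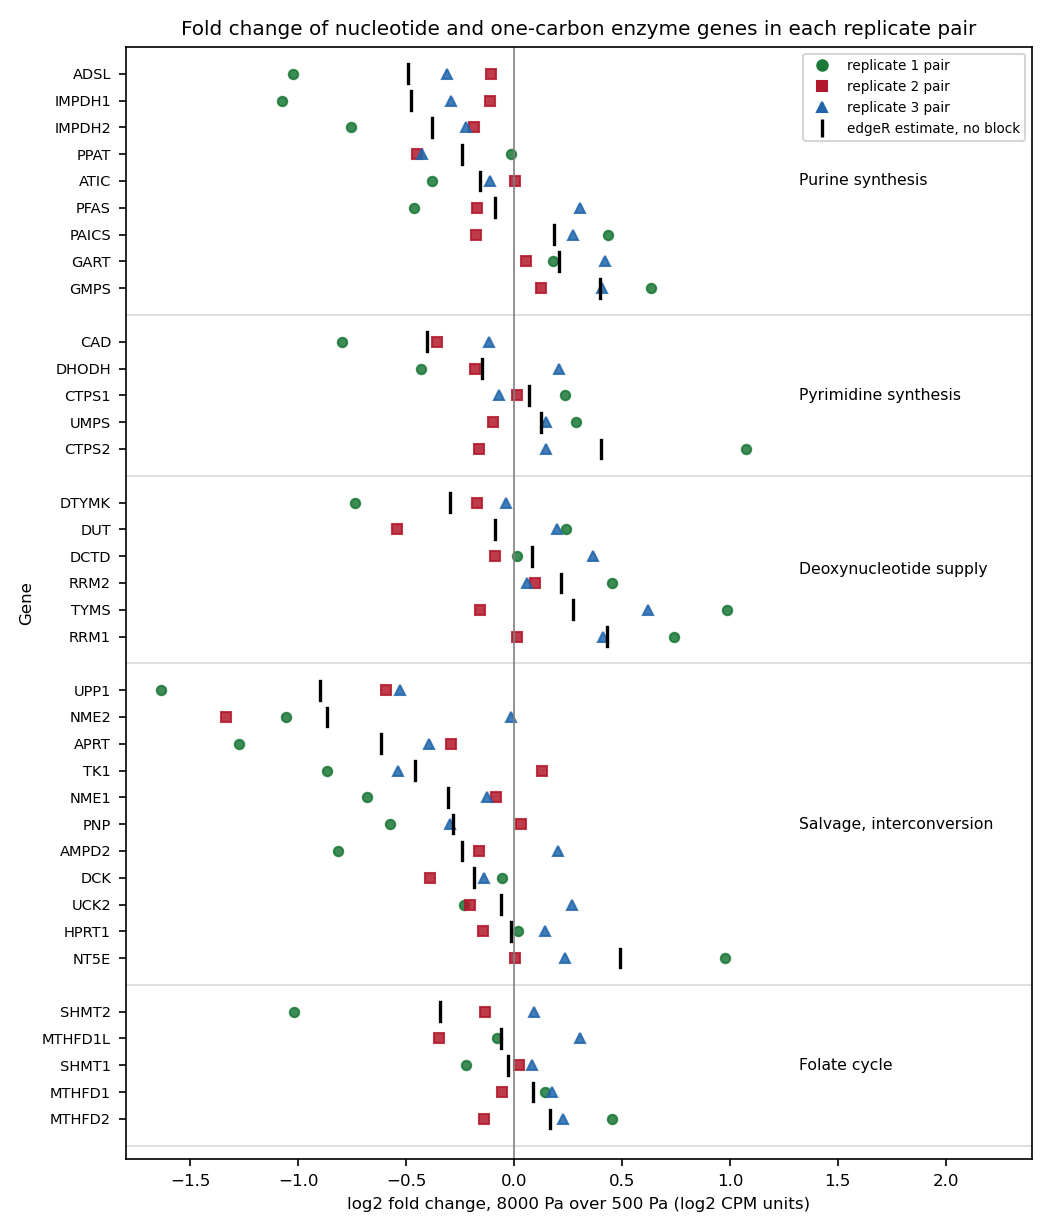
Log2 fold change, 8000 Pa over 500 Pa, on the x axis for each of the 36 tested genes (rows, by enzyme group), with 1 marker per replicate pair and a black tick for the edgeR estimate without the block. UPP1 lies left of 0 in all 3 pairs, at -1.64, -0.59 and -0.53, and the replicate 1 circles spread most widely.

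APRT, adenine phosphoribosyltransferase, which returns free adenine to AMP, had 216, 288 and 478 CPM at 8000 Pa and 525, 353 and 629 CPM at 500 Pa. Each 8000 Pa library was below its same-numbered 500 Pa library, but the groups overlapped, since 8000 Pa replicate 3 exceeded 500 Pa replicate 2. Its log2 fold change was -0.62 (95% interval -1.31 to 0.08) and it did not pass in either fit (edgeR adjusted p = 1.00, and 0.230 with the block). TK1, the cytosolic thymidine kinase of S phase, had 416, 545 and 791 CPM at 8000 Pa and 761, 499 and 1148 CPM at 500 Pa. The TK1 groups overlapped and replicate 2 went the other way, with a log2 fold change of -0.46 (95% interval -1.17 to 0.26).

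NME2, a nucleoside diphosphate kinase, was counted at 2.24, 1.16 and 3.39 CPM at 8000 Pa and 5.20, 3.69 and 3.43 CPM at 500 Pa. The groups did not overlap, though the replicate 3 libraries were nearly equal, and NME2 did not pass (edgeR adjusted p = 1.00, and 0.459 with the block). Exons of the readthrough gene NME1-NME2, which itself had 0 counts in every library, cover 69.6% of the principal NME2 transcript and 44.5% of that of NME1. How reads in shared exons were assigned is not given in the sources used here, so the counts of both kinases are uncertain. NME1 had 275 ± 29.3 CPM at 8000 Pa and 341 ± 61.3 CPM at 500 Pa, with a log2 fold change of -0.31 (SE 0.24). NME1, NME2 and the readthrough summed as 1 gene, an alternative chosen after seeing the data, gave -0.31 (SE 0.24). That sum had to lie near NME1, since the readthrough had 0 counts and NME2 few. Summing restores no read left uncounted, so it does not bear on the uncertainty.

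The other salvage members also did not pass. NT5E, the cell-surface nucleotidase CD73, stood at 13.1 ± 5.79 CPM at 8000 Pa and 9.32 ± 1.87 CPM at 500 Pa. PNP, purine nucleoside phosphorylase, had a log2 fold change of -0.28, AMPD2, an AMP deaminase, -0.24, and DCK, deoxycytidine kinase, -0.19. UCK2, a uridine-cytidine kinase, was at -0.06, and HPRT1, the hypoxanthine-guanine salvage enzyme, was at -0.02.

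Purine synthesis enzymes split by gene. Of the 9 tested, 6 had a log2 fold change below 0 and 3 above, with a median of -0.16, and medians of -0.38, -0.11 and -0.11 in the replicate 1, 2 and 3 pairs. None of the 9 passed in either fit (0 of 9). IMPDH2, the main inosine monophosphate dehydrogenase, which commits IMP to guanine nucleotides, had 289, 368 and 400.4 CPM at 8000 Pa and 489, 419 and 468 CPM at 500 Pa. All 8000 Pa values of IMPDH2 were below all 500 Pa values, with a log2 fold change of -0.38 (SE 0.24, 95% interval -0.90 to 0.14, edgeR adjusted p = 1.00, and 0.596 with the block).

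IMPDH1, its isozyme, had 37.7, 56.5 and 61.1 CPM at 8000 Pa and 80.1, 61.04 and 75.0 CPM at 500 Pa, groups that overlapped by 8000 Pa replicate 3. ADSL, adenylosuccinate lyase, which acts both in the synthesis of IMP and on the way to AMP, had 115, 139.8 and 171 CPM at 8000 Pa and 235, 151 and 213 CPM at 500 Pa. Both genes were lower in 3 of 3 pairs and neither passed (with the block, edgeR adjusted p = 0.425 for IMPDH1 and 0.426 for ADSL). GMPS, GMP synthetase, the next enzyme after IMPDH, lay the other way, at 184, 137 and 99.1 CPM at 8000 Pa and 118, 126 and 74.6 CPM at 500 Pa. GMPS was higher in 3 of 3 pairs with overlapping groups, and its log2 fold change of 0.40 (95% interval -0.25 to 1.05) did not pass.

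PPAT, the amidotransferase of the first committed step, and PAICS, a bifunctional enzyme of later steps, face away from each other across the stretch printed above. PPAT had 18.5, 8.45 and 6.78 CPM at 8000 Pa and 18.7, 11.7 and 9.29 CPM at 500 Pa. PAICS had 319, 211 and 166 CPM at 8000 Pa and 236, 238 and 138 CPM at 500 Pa. Per kilobase of principal transcript the mean level over the 6 libraries was 3.32 CPM for PPAT and 33.7 CPM for PAICS. Their log2 fold changes were -0.24 (95% interval -1.18 to 0.70) and 0.19 (95% interval -0.48 to 0.85), neither of which passed. GART, a trifunctional enzyme, had a log2 fold change of 0.21, ATIC, which closes the purine ring, -0.16, and PFAS, phosphoribosylformylglycinamidine synthase, -0.09.

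**Figure D2:**
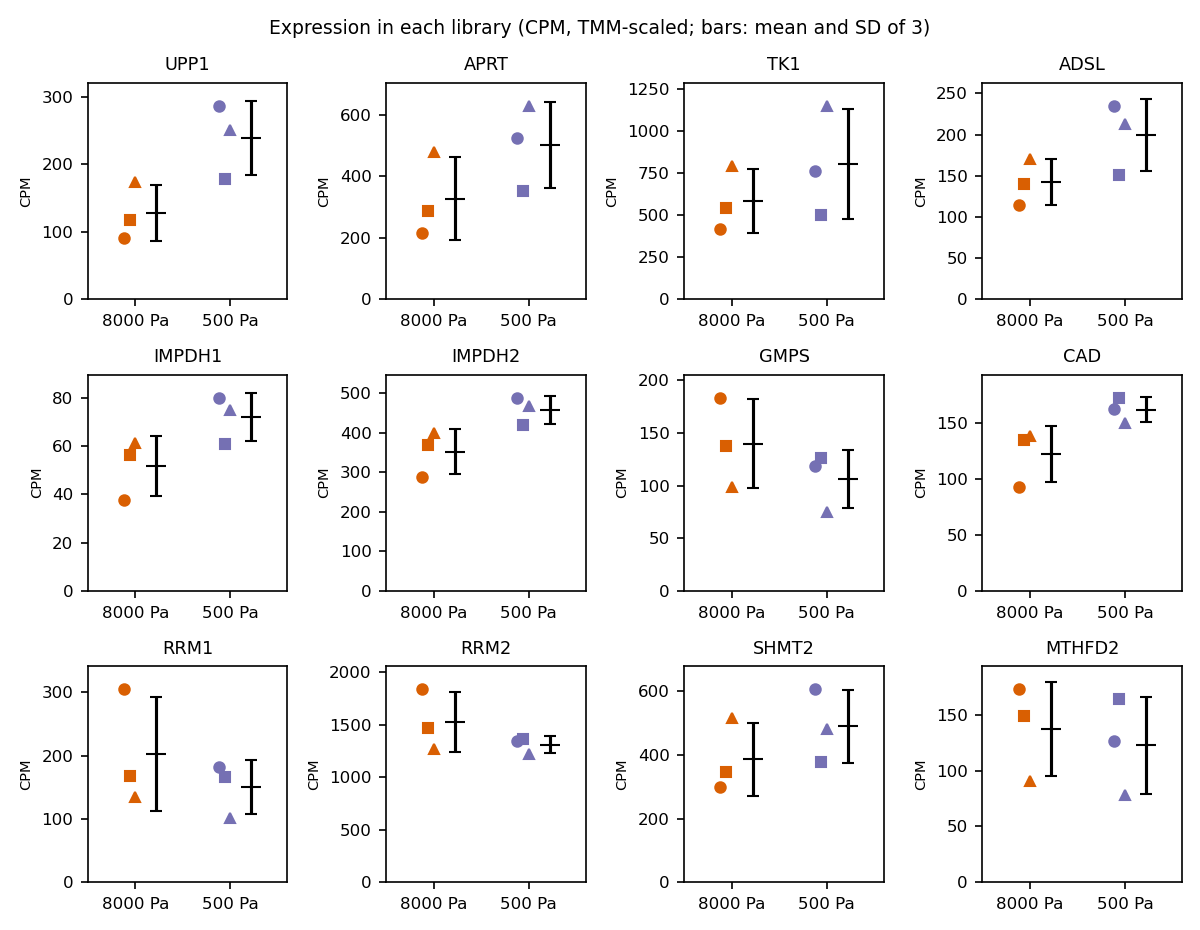
CPM (y axis, from 0) of 12 genes in each library at 8000 Pa (left) and 500 Pa (right), with circles for replicate 1, squares for replicate 2 and triangles for replicate 3, and the mean and SD of 3 libraries beside them. The groups are separate for UPP1, IMPDH2 and CAD and overlap for the other genes shown.

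Among the pyrimidine synthesis enzymes 3 of 5 lay above 0 and 2 below, and their median was 0.07 on the log2 scale. The median was 0.24, -0.16 and 0.15 in the replicate 1, 2 and 3 pairs, and -0.03 with the block and the GC correction together. CAD, the trifunctional enzyme that carries out the first steps, was the lowest of them, at 93.3, 135 and 139 CPM at 8000 Pa and 163, 173 and 150.5 CPM at 500 Pa. The CAD groups did not overlap, and CAD did not pass (log2 fold change -0.40, SE 0.25, edgeR adjusted p = 1.00, and 0.515 with the block). DHODH, the mitochondrial dihydroorotate dehydrogenase, had 16.2, 18.1 and 19.0 CPM at 8000 Pa and 22.02, 20.6 and 16.4 CPM at 500 Pa, which overlapped. UMPS, which completes UMP, had a log2 fold change of 0.13.

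CTPS1, the more abundant of the CTP synthetases here, had 133, 114 and 107 CPM at 8000 Pa and 113, 113 and 112 CPM at 500 Pa. Its log2 fold change was 0.07, with a 95% interval of -0.45 to 0.58. CTPS2, its paralog, had 16.5, 10.0 and 9.07 CPM at 8000 Pa and 7.5996, 11.3 and 8.15 CPM at 500 Pa. 8000 Pa replicate 1 was the high library for CTPS2 and the other values overlapped.

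Of the enzymes that supply deoxynucleotides 4 of 6 lay above 0, at a median of 0.15 on the log2 scale, and 0 of 6 passed in either fit. That median was 0.35, -0.12 and 0.28 in the replicate 1, 2 and 3 pairs, and -0.05 without 8000 Pa replicate 2. RRM2, the small subunit of ribonucleotide reductase, had 1840.0, 1467 and 1275 CPM at 8000 Pa and 1343, 1370.3 and 1224 CPM at 500 Pa. RRM1, the large subunit, had 305, 169 and 135 CPM at 8000 Pa and 182, 167 and 102 CPM at 500 Pa. Both subunits were higher in 3 of 3 pairs, with groups that overlapped, and 8000 Pa replicate 1 held the highest value of each. Their log2 fold changes were 0.22 (95% interval -0.31 to 0.75) for RRM2 and 0.43 (95% interval -0.29 to 1.15) for RRM1.

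DTYMK, thymidylate kinase, lay lower, with 178, 195 and 281 CPM at 8000 Pa and 296, 220.0 and 289 CPM at 500 Pa. TYMS, thymidylate synthase, had 10.2, 18.8 and 9.07 CPM at 8000 Pa and 4.92, 21.0 and 5.72 CPM at 500 Pa, with both replicate 2 libraries far above the rest. Exons of TYMSOS and ENOSF1, on the opposite strand, cover 64.6% of the principal TYMS transcript, and strand handling is not given in the sources used here, so the TYMS counts are uncertain. DUT, which clears dUTP, had a log2 fold change of -0.09 and DCTD, dCMP deaminase, had 0.08. The 34 genes of DNA replication and G1/S set beside them had a median of 0.01, with 0 called in either fit.

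Of the folate enzymes 2 of 5 lay above 0, at a median of -0.03 on the log2 scale, and 0 passed in either fit. The pairs had medians of -0.08, -0.13 and 0.18 for replicates 1, 2 and 3. Without the replicate 1 pair 3 of 5 lay above 0, at a median of 0.06. SHMT2, the mitochondrial serine hydroxymethyltransferase, had 299, 345 and 515 CPM at 8000 Pa and 606, 379 and 483 CPM at 500 Pa. SHMT1, the cytosolic isozyme, had 638, 667 and 868 CPM at 8000 Pa and 744, 657 and 819 CPM at 500 Pa. The SHMT1 libraries interleaved (log2 fold change -0.03, 95% interval -0.56 to 0.50), and SHMT2 was lower at 8000 Pa in the replicate 1 and 2 pairs and higher in the replicate 3 pair.

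MTHFD2, the mitochondrial methylenetetrahydrofolate dehydrogenase, had 173, 149 and 91.0 CPM at 8000 Pa and 126, 164 and 77.7 CPM at 500 Pa. Exons of SLC4A5 cover 29.7% of its principal transcript. MTHFD1, the cytosolic trifunctional enzyme, had 459.8, 356 and 345 CPM at 8000 Pa and 416, 371 and 305 CPM at 500 Pa. For both genes the groups overlapped, with log2 fold changes of 0.16 (95% interval -0.53 to 0.86) for MTHFD2 and 0.09 (95% interval -0.44 to 0.62) for MTHFD1. MTHFD1L, the mitochondrial formate-releasing enzyme, was at -0.06.

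Within each pair of isozymes or subunits one gene was the more abundant in both groups. Per kilobase of principal transcript, as means over the 6 libraries, SHMT1 stood at 297 CPM against 173 CPM for SHMT2, and the lowest SHMT1 library, at 259, was above the highest SHMT2 library, at 239. MTHFD1 stood at 119.7 CPM per kilobase, above MTHFD2 at 29.2 and MTHFD1L at 2.31. IMPDH2 had 247 CPM per kilobase against 21.5 for IMPDH1, CTPS1 had 36.1 against 2.42 for CTPS2, and RRM2 had 414 against 57.4 for RRM1. APRT, TK1 and RRM2 were the highest members on this scale, at 438, 426 and 414 CPM per kilobase, with ranges that overlapped, and CDA was the lowest at 0.803.

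**Figure D3:**
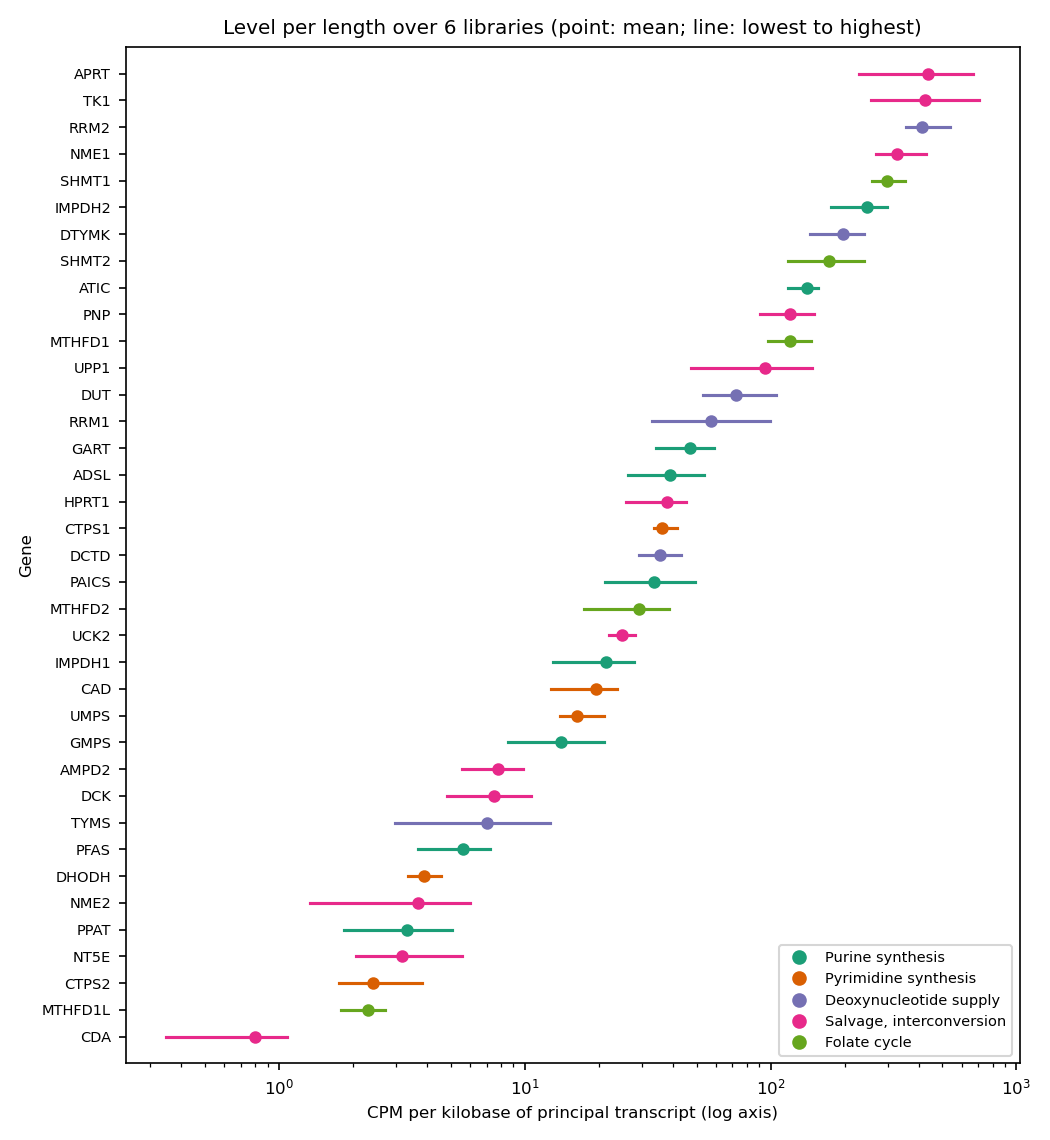
Mean level over the 6 libraries in CPM per kilobase of principal transcript (x axis, log scale), with a line from the lowest to the highest library, for all 37 genes (y axis), coloured by enzyme group. The 37 genes run from CDA at 0.803 to APRT at 438.

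**Figure D4:**
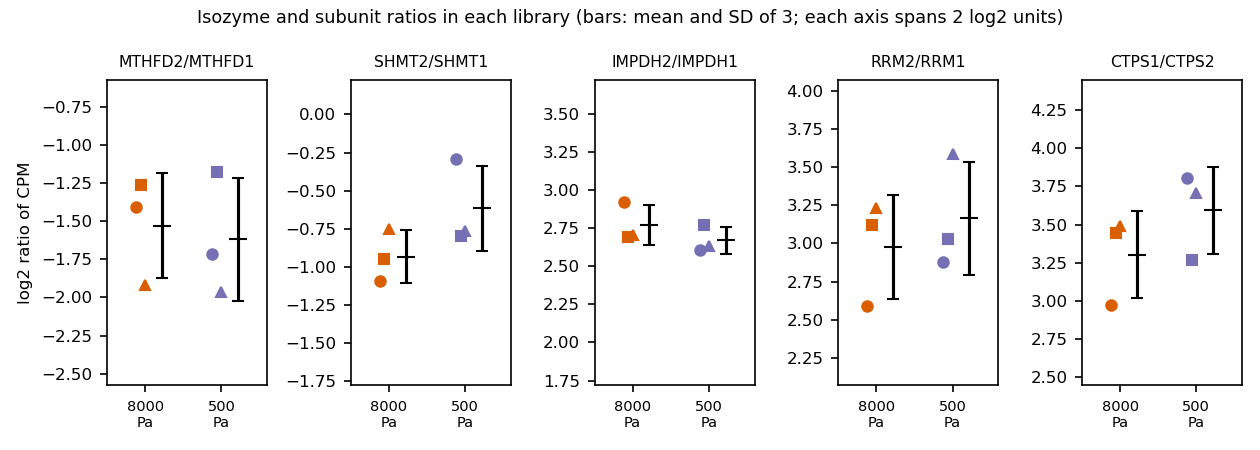
Log2 ratio of CPM between isozymes or subunits (y axis, not per length) in each library at 8000 Pa (left) and 500 Pa (right), with the mean and SD of 3 libraries and the marker shapes of the replicates as circles (1), squares (2) and triangles (3). The groups overlap in each of the 5 ratios.

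Ratios within a library, which no scaling of whole libraries alters beyond the pseudocount of 0.5 CPM, did not pass the test in any of the 5 pairs. These ratios were not corrected for GC content. The log2 ratio of SHMT2 to SHMT1 averaged -0.93 ± 0.17 at 8000 Pa and -0.62 ± 0.28 at 500 Pa (SD, n = 3 each, two-sided exact permutation p = 0.3). In replicates 1, 2 and 3 it was -1.09, -0.95 and -0.75 at 8000 Pa and -0.29, -0.79 and -0.76 at 500 Pa. CTPS1 to CTPS2 averaged 3.30 ± 0.29 at 8000 Pa and 3.59 ± 0.29 at 500 Pa (exact permutation p = 0.3). Its values were 2.97, 3.44 and 3.49 at 8000 Pa and 3.81, 3.27 and 3.71 at 500 Pa. For both ratios the gap was widest in the replicate 1 pair. RRM2 to RRM1 averaged 2.98 ± 0.34 at 8000 Pa and 3.16 ± 0.37 at 500 Pa (exact permutation p = 0.6), IMPDH2 to IMPDH1 2.77 ± 0.13 and 2.67 ± 0.09 (exact permutation p = 0.4), and MTHFD2 to MTHFD1 -1.53 ± 0.34 and -1.62 ± 0.40 (exact permutation p = 0.9), again with 8000 Pa before 500 Pa. Adjusted over the 5 ratios the values were 0.667 or more, and 3 against 3 libraries cannot give p below 0.1.

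The members together took 0.878%, 0.724% and 0.71% of all counts at 8000 Pa, against 0.804%, 0.759% and 0.678% at 500 Pa. In bulk RNA, fewer cells in a given phase of the cycle and less RNA per cell cannot be told apart. Groups that did not overlap were seen for 4 members, UPP1, NME2, IMPDH2 and CAD, all lower on stiff gels, where 2.85% of all tested genes were lower and 4.02% higher without overlap (6.87% in all). All 3 pairs were lower for 11 of the 36 and higher for 5, against 15.2% and 14.6% of all tested genes.

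Fold changes of the members followed transcript GC content, most strongly in the replicate 1 pair. Across the 36 tested members Spearman's rho was -0.76 there, and -0.19 and -0.26 in the replicate 2 and 3 pairs. The same measure across 11003 genes was -0.63, 0.06 and 0.01 in the replicate 1, 2 and 3 pairs. For the edgeR fold changes of stiffness alone, rho was -0.65 across the members and -0.38 across the 11003 genes. The group medians and direction counts above that rest on that fit carry this trend. Genes of one library share its depth and preparation and are not independent replicates. Salvage members had a median GC content of 55.3%, against 46.5% for purine synthesis and 48.5% for all tested genes. With the block and the GC correction together, the log2 fold change was -0.34 for APRT, -0.15 for TK1, -0.20 for IMPDH1 and -0.26 for CAD, and -0.66 for ADSL (edgeR adjusted p = 0.0831) and -0.40 for IMPDH2. Of the members higher in 3 of 3 pairs, GMPS was at 0.29 in that fit, RRM1 at 0.25 and RRM2 at 0.07. GART was at 0.05 and NT5E at 0.30. The GC content of these genes was low, at 40.9%, 43.0%, 42.6%, 46.5% and 42.4% in that order. The salvage median in the fit with the block and the GC correction was -0.27.

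**Figure D5:**
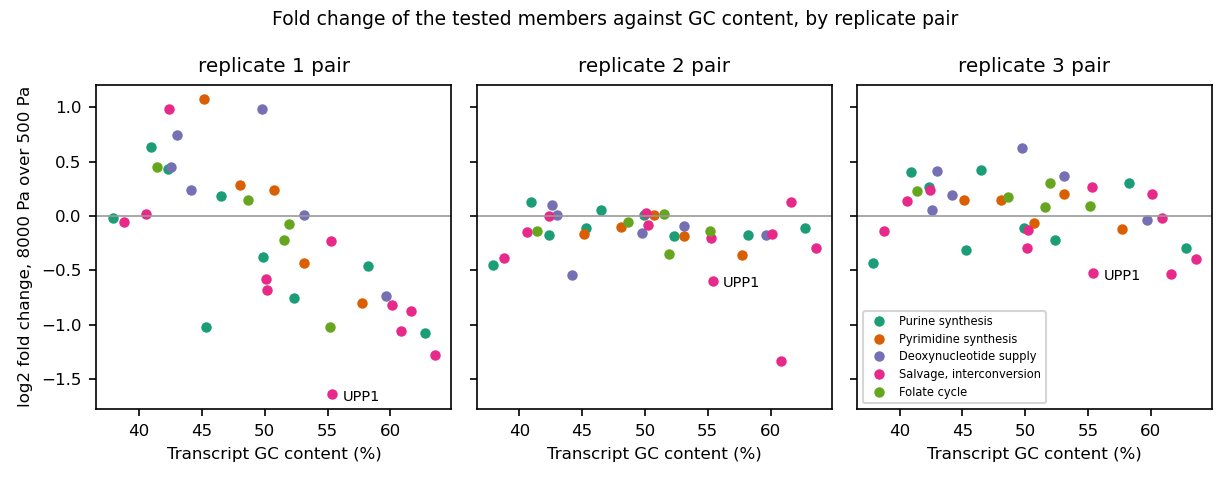
Log2 fold change, 8000 Pa over 500 Pa (y axis), of the 36 tested genes against the GC content of the principal transcript in percent (x axis), 1 panel per replicate pair, coloured by enzyme group. The points slope down in the replicate 1 panel (rho -0.76) and are flatter in the other panels (rho -0.19 and -0.26).

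Other genes of the same pathways were read from a list of 88, of which 74 were tested. None passed with or without the block (0 of 74), and without it 44 had a log2 fold change below 0. The median was -0.08 without the block and -0.15 with it. SLC28A3, a concentrative nucleoside transporter, had 7.91, 3.28 and 6.48 CPM at 8000 Pa and 1.51, 3.13 and 1.14 CPM at 500 Pa. The SLC28A3 groups did not overlap, by a narrow margin in the replicate 2 libraries, and the gene did not pass (log2 fold change 1.61, SE 0.52, edgeR adjusted p = 1.00, and 0.0648 with the block). XDH, xanthine dehydrogenase, had 20.8 ± 3.69 CPM at 8000 Pa and 12.1 ± 5.01 CPM at 500 Pa, and ENTPD4, a Golgi nucleotidase, 42.1 ± 3.34 CPM at 8000 Pa and 26.1 ± 9.28 CPM at 500 Pa. Both had groups that did not overlap and did not pass (edgeR adjusted p with the block, 0.211 for XDH and 0.191 for ENTPD4).

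On the lower side of that list, SLC29A1, the equilibrative nucleoside transporter ENT1, had 66.6 ± 11.8 CPM at 8000 Pa and 101 ± 25.2 CPM at 500 Pa. UCKL1, a uridine-cytidine kinase-like gene, had 53.9 ± 18.4 CPM at 8000 Pa and 81.7 ± 21.0 CPM at 500 Pa. NME3, a nucleoside diphosphate kinase, had 67.8 ± 32.8 CPM at 8000 Pa and 101 ± 29.2 CPM at 500 Pa, lower in 3 of 3 pairs with overlapping groups. With the block, the edgeR adjusted p was 0.308 for SLC29A1, 0.257 for UCKL1 and 0.228 for NME3. PHGDH, the entry to serine synthesis, had 302 ± 105 CPM at 8000 Pa and 429 ± 79.6 CPM at 500 Pa and did not pass.

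Total counts were 9068926 to 10739449 at 8000 Pa and 8305601 to 18779742 at 500 Pa. All 9 epithelial markers were tested, with a summed level of 10917 to 21153 CPM at 8000 Pa and 14053 to 26337 CPM at 500 Pa, mostly KRT8 and KRT18. Single epithelial markers went both ways in the edgeR fit of stiffness alone, from -0.89 for KRT17 to 1.07 for TP63. Of 6 endothelial markers 3 were tested, with sums of 213 to 258 CPM at 8000 Pa and 100.2 to 156 CPM at 500 Pa, mostly PECAM1, and TEK was at 0 counts. Of 4 adipocyte markers 2 were tested, with sums of 12.1 to 19.6 CPM at 8000 Pa and 2.29 to 5.25 CPM at 500 Pa, and ADIPOQ was at 0. Of 5 leukocyte and 6 fibroblast markers, 2 and 1 were tested, with sums of 14.1 to 23.5 and 0.959 to 4.65 CPM at 8000 Pa and 10.2 to 15.01 and 0.950 to 1.86 CPM at 500 Pa, and PTPRC, CD3E, COL1A2, COL3A1 and LUM were at 0. In the blocked fit that called UPP1, 4 of these markers were called too, all higher at 8000 Pa. They were the endothelial markers PECAM1 (log2 fold change 1.01, edgeR adjusted p = 0.00537) and CDH5 (1.99, 0.000314) and the adipocyte markers FABP4 (2.12, 0.000526) and LPL (2.43, 6.8e-05), and without the block none of these was called. The remaining tested endothelial marker, ESAM, was not called (log2 fold change 0.03 with the block), and VWF and KDR had 0 to 4 counts per library. The part of these marker differences in the results above was not tested.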

How the data were processed

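RNA from 6 cultures, 3 per stiffness, was sequenced and counted per gene symbol. The deposited counts are raw whole numbers. The submitters' processing notes name HISAT2 (2.1.2), HTSeq (0.11.4) and the build GRCh38. The deposited log2 values, TMM-scaled per the file headers, were not used for results. For the annotation release, strandedness and ambiguous reads the record is silent (not given in the sources used here).

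Genes were kept by filterByExpr (minimum count 10, minimum total 15), which left 11517. After TMM scaling, the effect of stiffness was fitted by the quasi-likelihood method of edgeR 4.0.16 in R 4.3.3, adjusted by Benjamini-Hochberg over all 11517 genes at an FDR of 0.05. Every fold change is a log2 value with 8000 Pa on top, and CPM values are TMM-scaled. A second fit took the replicate number as a block. Deviations of same-numbered libraries from their group means correlated at 0.409, 0.184 and 0.516 across genes, each above the 0.1 required, so the numbers were taken to pair the samples. The match was not exclusive: 8000 Pa replicate 1 and 500 Pa replicate 2 correlated at 0.199, above the 0.184 of the replicate 2 pair, and the remaining crossed pairs ran from -0.499 to 0.0491. The numbers themselves are from the labels.

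Coordinates, lengths and GC content of principal transcripts come from GENCODE 29 (GRCh38), which matched 95.5% of tested genes by symbol. The GC correction was an offset from a spline of 5 degrees of freedom per library. DESeq2 1.42.0, limma 3.58.1 (voom), other scalings, no filter and left-out libraries were alternatives. The totals put 3 counts at 0.168 to 0.429 CPM, a limit that covers counting error only. All 37 members are named, with every library's value for those passing in either fit, the 3 of smallest p with the block in each enzyme group and the most abundant per length. Other pathway genes named are the 3 of smallest p with the block in each direction. Values of TK1, PPAT, PAICS, NME1, NT5E and PHGDH were added after they were seen. The members and lists were chosen with earlier results of these data known.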

Additional observations from a re-analysis of the deposited data

How the results depend on the processing

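The count of members passing was 0 without a block and 1 (UPP1) with the replicate block, with the replicate block and GC offset, and with the replicate block in DESeq2. Of all tested genes, edgeR called 0% for stiffness alone and 0.53% with the replicate block. For the other fits that share is not given here, so their counts of members and other pathway genes cannot be set against it. Leaving out libraries gave 0 to 1 members, with 1 in the blocked fit without replicate 2. UPP1 passed in 4 of the 6 fits with a block and in none of the 12 without, and its log2 fold change ran from -1.17 to -0.54 over all 18. Among the other pathway genes the count was 0 in every fit run except the blocked fit without replicate 2, where it was 1 (SLC28A3, log2 fold change 2.43, edgeR adjusted p = 0.0131), so leaving out libraries gave 0 to 1. With library size alone the purine synthesis median was -0.0017, but that scaling moved the median of all genes to 0.17. The other group medians moved by less than the SD of the medians of the 3 pairs. With single libraries or replicate pairs left out, the pyrimidine median ran from -0.05 to 0.16, the deoxynucleotide median from -0.05 to 0.26 and the folate median from -0.05 to 0.11, so their signs depend on the libraries used. The pyrimidine sign also depends on the GC offset, which with the replicate block gave -0.03. The salvage median kept its sign (-0.40 to -0.11). The 5 ratio differences moved by less than the SD between replicates in every alternative run for them. The replicate block (the mean of the within-pair differences, 0.09 for MTHFD2 to MTHFD1) could not move them. With complete pairs that mean equals the difference of the group means. Of 613 refitted values of single members, 52 changed sign, each while smaller than its standard error in both fits. At these depths CDA was too low to test.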
